A study of Mus musculus with 38 samples.

Results

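The transcripts described here encode the proteins of the cytosolic ribosome, with the copies of these genes that the testis is known to use. They were chosen by symbol: every probe whose gene symbol is Rpl or Rps followed by a number and, at most, the letters a, x, y or l, with the brightest probe standing for each gene and a signal above background required on at least 2 arrays. The rule matched 56 symbols, and 53 of them passed, 31 of the large and 22 of the small subunit, out of 15201 genes tested on the same arrays. The symbol Rps4l is annotated by RefSeq (GRCm38.p6) as a transcribed pseudogene and was kept, since it fits the rule. The 3 that did not pass were Rpl6, above background on 1 array, and Rps23 and Rpl17, above background on none. At the edge of the rule, Rpl14 was above background on 12 arrays with a mean log2 intensity of 6.50 and Rps20 on 17 arrays with 6.59, while Rpl6 had a mean of 6.26. The other 51 were above background on all 38 arrays. Rpl10 and its autosomal copy Rpl10l are named by no probe used here and were not analysed here.

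The samples were whole mouse testes, whose RNA was labelled with biotin and read on 38 Illumina bead arrays that fall into 20 groups. LuRKO mice carry no functional receptor for luteinizing hormone (LH), the signal for testosterone synthesis in Leydig cells. Untreated testes of LuRKO mice and of wild-type (WT) littermates were taken at days 3, 8, 13, 19 and 27, with birth as day 1. All injected animals were LuRKO: a single intraperitoneal dose of 2.5 mg testosterone propionate was given at day 19 and the testes were taken after 2, 4, 8, 12, 24 or 48 h. In a dose series, vehicle, 250 ng, 2.5 µg or 25 µg was given and the testes were taken after 24 h. By label, the 2.5 mg array of 24 h belongs to the time course, so comparisons of 2.5 mg with vehicle set arrays of different series side by side. The labels give no strain, and no WT animal among these arrays was injected. Each array held RNA pooled from 2 animals, 18 groups had 2 arrays, called A and B, and LuRKO day 27 and 2.5 mg at 24 h had 1 array. P-values therefore measure the spread between arrays of pooled RNA, and a lone array is assumed to vary like the other groups.

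Every cell builds ribosomes from a large and a small subunit, each of ribosomal RNA and many proteins, and the mRNAs of these proteins share a pyrimidine-rich start through which their translation is controlled together. Several ribosomal protein genes lie on the X chromosome, which is silenced in male germ cells during meiosis. Autosomal copies that arose by retroposition, such as Rpl39l for Rpl39 and Rpl10l for Rpl10, are known to be used in mammalian testes, where the X-linked genes are silent.

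The annotated start regions of the X-linked gene Rpl39, its autosomal copy Rpl39l and the X-linked gene Rps4x are shown because they are an X-linked gene with its autosomal copy, which moved in opposite directions with age, and the X-linked gene with the largest decrease. Each sequence runs 5′ to 3′ on the strand of the gene from 40 bases before to 20 bases from the annotated start (RefSeq, GRCm38.p6), and capitals mark a pyrimidine tract.
Rpl39: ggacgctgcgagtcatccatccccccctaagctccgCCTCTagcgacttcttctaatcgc
Rpl39l: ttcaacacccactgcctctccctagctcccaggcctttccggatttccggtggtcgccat
Rps4x: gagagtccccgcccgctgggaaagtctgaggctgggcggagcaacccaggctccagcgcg
The windows are chrX:37085203-37085262 on the minus strand for Rpl39, chr16:10170188-10170247 on the plus strand for Rpl39l and chrX:102189372-102189431 on the minus strand for Rps4x. A tract was counted where a C within 5 bases of the annotated start, on the gene's own strand, was followed without a break by at least 4 further bases that are C or T. Rpl39 held such a tract of 5 bases, and the windows of Rpl39l and Rps4x did not. The Rpl39l window does hold an unbroken run of C and T that ends at the base before the annotated start. That run begins more than 5 bases before the start, so it was not counted. Of the 53 ribosomal protein genes 44 had an entry in the table of start regions, and 21 of these (47.7%) held a tract, with 21.7% of the 12160 tested genes that had an entry and 17.1% of all 32851 windows. A match is a description of these letters only, and its place depends on the annotated start.

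Values are log2 intensities after background correction, differences are given on the log2 scale with their standard error (SE), and a difference was called where limma's p-value, adjusted over all 15201 genes by Benjamini and Hochberg, was under 0.05. Between 24078 and 24114 of 45281 probes were above the background threshold, an intensity of 102, on each array; since the authors had set all arrays to 1 distribution, these numbers are almost equal. The number of arrays limits the precision. Probe signals of different genes cannot be set against each other. The strongest signals among the ribosomal protein genes were those of Rpl41, Rps29 and Rps12 (means of 15.32, 15.28 and 15.18), and the weakest were those of Rpl14, Rps20 and Rps15a (6.50, 6.59 and 7.72). Because ribosomal protein genes have many near-identical processed copies in the mouse genome, a probe may also read transcripts of such copies, and its signal is given here under the gene's name.

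Some arrays stood apart before any comparison. Against the 17 arrays of the age series other than LuRKO day 3, 154 of the 15201 genes were lower on every one of the 19 injected arrays, and 95 of these 154 were also lower on both LuRKO day 3 arrays. Among them was Hspa5, a chaperone of the endoplasmic reticulum, which lay at 8.70 to 9.73 on injected arrays, at 8.57 and 8.33 on the LuRKO day 3 arrays and at 10.14 to 11.70 on the other 17. The 154 genes include 1 ribosomal protein gene. In the other direction, 56 genes were higher on every injected array, and only 1 of these 56 was also higher on both LuRKO day 3 arrays. Injection and the series an array belongs to cannot be told apart, so results after injection are given below against both untreated and vehicle-injected testes. Single arrays also went against their labels: Rhox5, an androgen-responsive homeobox gene, was at 10.92 in the library labelled vehicle A, whose age label also differs, and at 8.15 in vehicle B; it was at 10.61 in LuRKO day 13 B and 9.06 in A; and Ldhc, a germ cell gene, was at 10.61 in WT day 3 A and 7.70 in B. Counts without these 3 arrays are given where they differ.

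The WT series over age shows how ribosomal protein transcripts change as the first wave of germ cells enters meiosis and forms spermatids. From day 3 to day 27, 44 of 53 transcripts fell and 2 rose, among all genes 44.3% were called lower and 28.7% higher. The median change was -1.03 over the ribosomal protein genes and -0.18 over all genes tested. The 2 that rose were Rpl39l and Rps4l. In whole testes, fewer cells of a type and less RNA per cell cannot be told apart, and intensities show a transcript's share of the hybridised RNA, not its amount per testis.

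**Figure D1:**
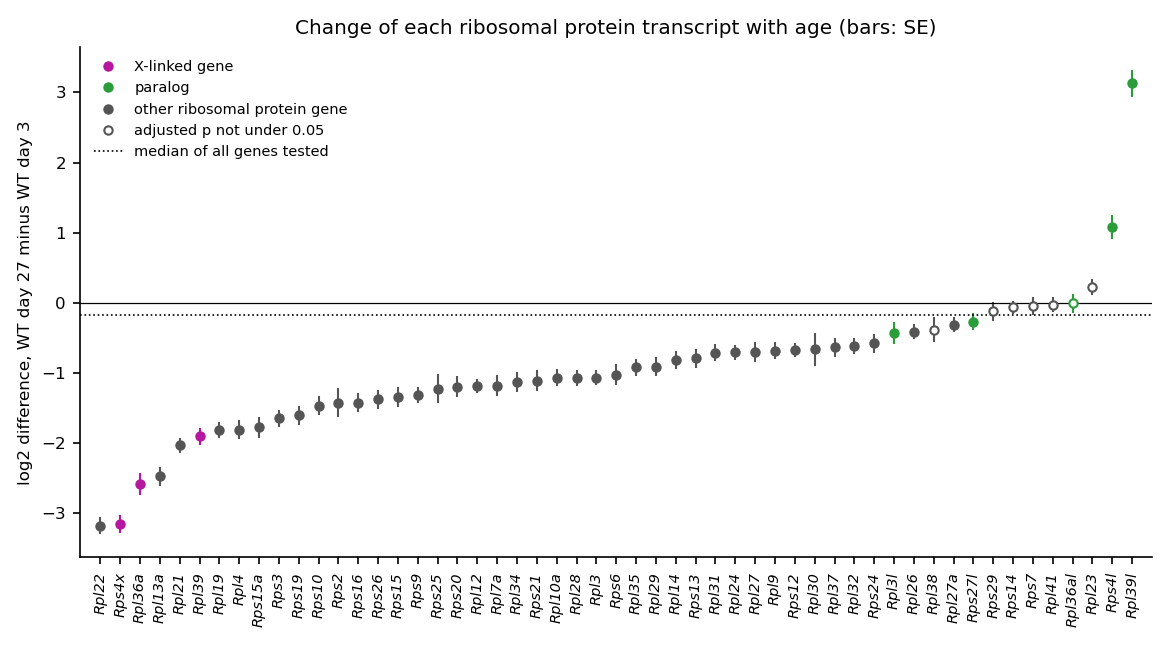
Each point is the log2 difference of 1 ribosomal protein transcript between WT day 27 (2 arrays) and WT day 3 (2 arrays), ordered by size, with its SE as a bar; X-linked genes are purple and paralogs green, open points did not pass an adjusted p of 0.05 and the dotted line is the median of all genes tested (-0.18), and Rpl14 was not above background at day 27, so its point is no measured size. The X-linked genes Rps4x, Rpl36a and Rpl39 lie among the 6 largest decreases, and Rpl39l and Rps4l are the only called increases.

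Rpl39 encodes a small protein of the large subunit near the exit of the peptide tunnel. On the WT arrays A and B it was at 15.04 and 14.97 at day 3, at 14.75 and 14.74 at day 8, at 14.74 and 14.67 at day 13, at 13.80 and 13.73 at day 19 and at 13.15 and 13.05 at day 27. The levels at days 19 and 27 did not overlap those at any earlier age. From day 3 to day 27 it fell by 1.90 (SE 0.12, limma adjusted p = 1.02e-14), a 3.74-fold decrease.

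Rpl39l, the autosomal copy on chromosome 16, ran the other way. The WT arrays read 8.89 and 9.38 at day 3, 9.70 and 9.63 at day 8, 10.52 and 10.33 at day 13, 11.83 and 11.84 at day 19 and 12.33 and 12.19 at day 27. No age overlapped the next, and the increase from day 3 to day 27 was 3.13 (SE 0.19, limma adjusted p = 2.57e-15), or 8.75-fold. From day 19 to day 27 alone its difference was 0.43 (SE 0.19) with a limma adjusted p of 0.060, which was not called.

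Rps4x, an X-linked gene of the small subunit, was at 15.21 and 14.78 on the WT day 3 arrays, 14.60 and 14.71 at day 8, 14.02 and 14.06 at day 13, 12.51 and 12.56 at day 19 and 11.91 and 11.75 at day 27. It fell by 3.16 from day 3 to day 27 (SE 0.13, limma adjusted p = 1.71e-19), with no overlap between any ages. Rps4l, the transcribed pseudogene on chromosome 6, rose by 1.08 (SE 0.17), from 9.49 and 10.17 to 10.87 and 10.94. Rps4l has no entry in the table of start regions, so none is shown.

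The third X-linked member, Rpl36a, was at 13.59 and 13.46 on the WT arrays of day 3 and at 10.94 on both of day 27, a decrease of 2.59 (SE 0.16, limma adjusted p = 2.74e-15). Its autosomal paralog Rpl36al differed by -0.01 (95% interval -0.30 to 0.27) between the same groups and ranged over only 0.56 across all 20 group means. Of the other paralogs, Rpl3l (of Rpl3), known from mouse striated muscle, was at 7.68 and 8.01 at day 3, at 9.06 and 9.23 at day 13 and at 7.27 and 7.55 at day 27. Rpl3l thus stood highest at day 13, and its day 27 level was 0.43 below that of day 3 (SE 0.16). Rps27l, a paralog of Rps27 known as a p53 target, was lower at day 27 by 0.27 (SE 0.12), after 14.58 and 14.48 at day 13.

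**Figure D2:**
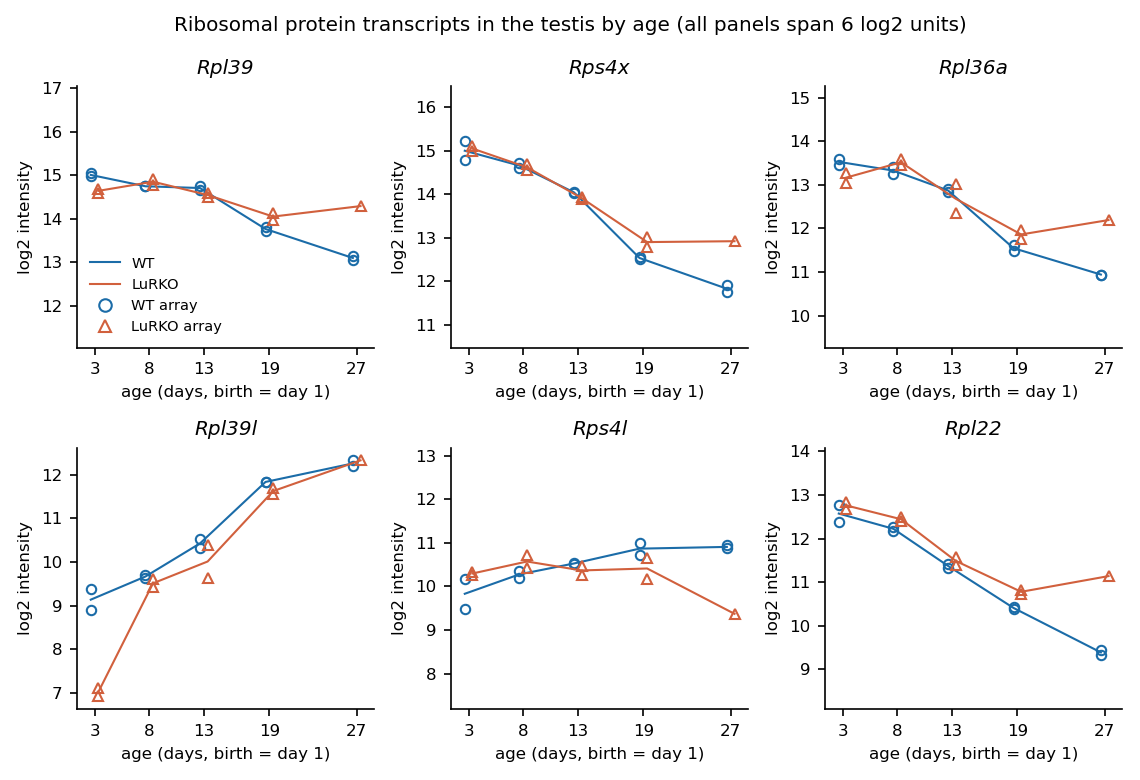
Log2 intensity against age in days for the X-linked genes Rpl39, Rps4x and Rpl36a, the autosomal copies Rpl39l and Rps4l, and Rpl22; circles are WT and triangles LuRKO arrays, lines join the means of 2 arrays (1 array for LuRKO day 27), and all panels span 6 log2 units. Rpl39, Rps4x, Rpl36a and Rpl22 fall with age in WT testes and lie higher in LuRKO than in WT testes at day 27, while Rpl39l ends at 12.33 in LuRKO and at 12.33 and 12.19 in WT testes.

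X-linked position was compared with the rest of the array as a description, since the list is short. All 3 X-linked members fell from day 3 to day 27 (median -2.59), and of 568 other X-linked genes 60.9% were called lower (median -0.78). Of the 50 members on other chromosomes 41 fell (median -0.92), with 43.5% of the 14566 other genes not on the X (median -0.17). The fall was thus not confined to the X-linked members. A further 6 X-linked genes with a known testis retrogene (Pgk1, Pdha1, Cetn2, Cstf2, Utp14a and Rbmx) all fell (median -2.13), and the 4 of 7 listed retrogenes that were tested (Pgk2, Cetn1, Rbmxl2 and Gk2) all rose (median 6.13).

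The largest decrease of all members was that of an autosomal gene, Rpl22, whose protein binds RNA in the large subunit and is dispensable for translation in mice. Rpl22 was at 12.76 and 12.39 on the WT arrays of day 3, 12.27 and 12.18 at day 8, 11.33 and 11.42 at day 13, 10.43 and 10.39 at day 19 and 9.34 and 9.44 at day 27. The levels fell at every age without overlap, in total by 3.19 (SE 0.12, limma adjusted p = 3.63e-20), or 9.10-fold. Its paralog Rpl22l1, which the symbol rule does not take, differed by -0.20 (SE 0.24) and was not called. Rpl13a, of the large subunit, fell by 2.48 (SE 0.13) and Rpl21, also of that subunit, by 2.04 (SE 0.11).

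Among small-subunit genes other than Rps4x, the decreases reached 1.78 (SE 0.15) for Rps15a, 1.65 (SE 0.12) for Rps3, which lies at the mRNA entry channel, and 1.61 (SE 0.14) for Rps19, the first gene known to be mutated in Diamond-Blackfan anaemia in humans. The 7 transcripts that were not called were Rps29, Rps14, Rps7, Rpl41, Rpl36al, Rpl38 and Rpl23. Several of these have probe signals near the top of the arrays' scale, where the highest intensity on every array was 46733. The 7 members with a mean over 15 changed by -0.67 to 0.22 (median -0.38), and the other 46 had a median of -1.09. Across the 53 members, Spearman's rho between mean level and change was 0.45, given as a description of genes that share the same arrays. How far bright signals understate a change was not tested.

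Other probes of a gene give a further reading. For 17 members more than 1 probe was above background, with 41 probes in all, of which 37 were called lower and 1 higher at day 27 than at day 3 in a fit of all kept probes. The next-brightest probe fell more than the brightest for 10 of the 17 genes. Rpl23 is the clearest case: its brightest probe differed by 0.22, and its other probes by -0.70, -2.69 and -1.28. Rpl29 ran the other way, with -0.91 for the brightest and 2.05 for the other probe. The brightest probe of Rps24 differed by -0.58 and the others by -0.93 and -2.15. Probes of Rpl23 and Rpl29 thus disagree in direction, and for these genes the sign depends on the probe chosen.

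**Figure D3:**
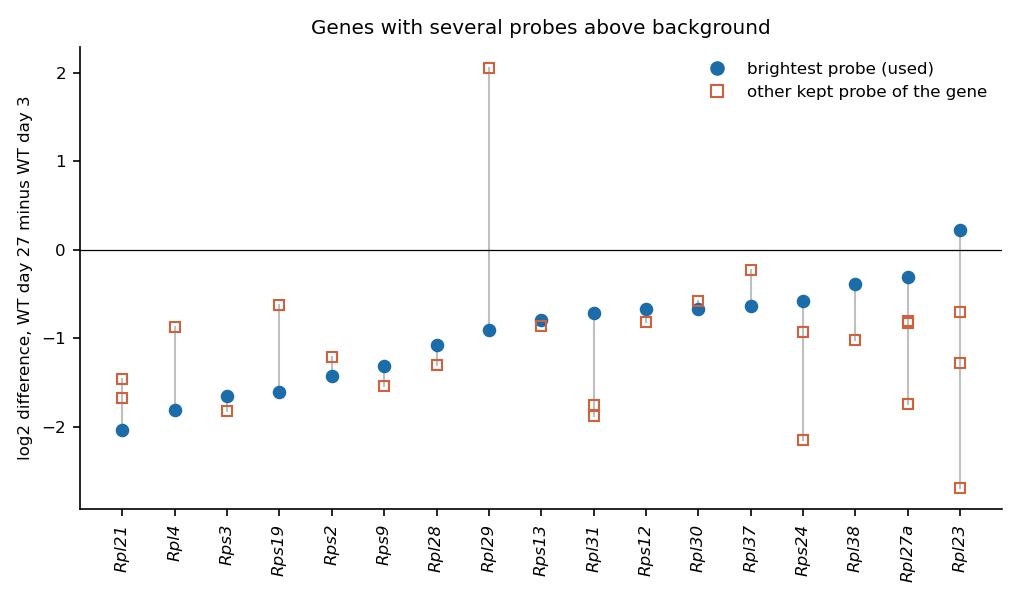
Log2 difference between WT day 27 and WT day 3 for every probe above background of the 17 members with several such probes; filled circles are the brightest probe, used elsewhere, and open squares the others. Most probes lie below 0, and the probes of Rpl29 and Rpl23 lie on both sides of it.

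Over the last step, from day 19 to day 27, 29 of the 53 transcripts fell in WT testes and 2 rose, among all genes 35.9% and 15.1% (median -0.35 for members and -0.17 for all genes). Rpl22 fell by 1.02 (SE 0.12), Rpl3l by 0.71 (SE 0.16), Rps4x by 0.71 (SE 0.13), Rpl39 by 0.67 (SE 0.12) and Rpl36a by 0.61 (SE 0.16). The 2 increases were Rpl29 at 0.40 (SE 0.13) and Rpl23 at 0.28 (SE 0.11), the genes whose probes disagree. Neither held when single arrays were left out: Rpl29 was not called without WT day 19 A (0.37) or WT day 27 B (0.27), and Rpl23 not without WT day 19 A (0.21), WT day 27 A (0.33) or WT day 27 B (0.23). Without WT day 19 array A the number of calls was 19 in place of 31.

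In LuRKO testes over the same step, 2 transcripts fell and none rose, with 4.41% and 4.93% of all genes called lower and higher, and the median was 0.04 (1 array at day 27 against 2). Rps4l went from 10.17 and 10.65 to 9.37, a fall of 1.04 (SE 0.21, limma adjusted p = 0.00145). Rps15a went from 8.14 and 8.06 to 7.27, a fall of 0.83 (SE 0.18). At an unadjusted p under 0.05 there were 8. Without LuRKO day 19 array B, and also without the 3 doubted arrays, 4 calls were made.

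The difference between the genotypes in this change was tested directly as an interaction. It was called positive, with the LuRKO change above the WT change, for 14 members and negative for 2, among all genes 21.6% and 13.2%, so the positive share of the members, 26.4%, was close to the background. Rpl22 was at 10.82 and 10.74 in LuRKO day 19 and 11.14 at day 27, and its change exceeded that of WT by 1.38 (SE 0.19, limma adjusted p = 1.42e-06). Rpl36a differed by 0.94 (SE 0.25), Rpl39 by 0.91 (SE 0.19) and Rps4x by 0.73 (SE 0.20), so all 3 X-linked members were among the 14, with 35.4% of the other X-linked genes. Rpl14 is counted among the 14, but it was not above background in LuRKO day 19 (6.59 and 6.28) or WT day 27 (6.31 on both arrays), so its difference has no known size. The 2 negative ones were Rps4l at -1.08 (SE 0.27) and Rpl29 at -0.70 (SE 0.21). Rpl29 lost its call without LuRKO day 19 A (-0.45) and without WT day 27 B (-0.57). For Rpl39l the interaction was 0.28 (95% interval -0.33 to 0.89) and was not called.

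At day 27 the genotypes were compared directly, 1 LuRKO array against 2 of WT. In LuRKO testes 29 transcripts were higher and 1 lower, among all genes 34.1% and 20.8%, with a median of 0.48 for members and 0.14 for all genes. Rpl22 was at 11.14 in LuRKO and at 9.34 and 9.44 in WT testes, a difference of 1.75 (SE 0.15, limma adjusted p = 3.95e-11) or 3.37-fold. The X-linked Rpl36a (12.19 against 10.94 on both WT arrays), Rpl39 (14.29 against 13.15 and 13.05) and Rps4x (12.92 against 11.91 and 11.75) were higher by 1.26 (SE 0.19), 1.19 (SE 0.15) and 1.09 (SE 0.16). Rpl3l was higher by 1.08 (SE 0.20) and Rps27l by 0.94 (SE 0.15).

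Rps4l, at 9.37 against 10.87 and 10.94, was the 1 transcript lower in LuRKO testes at day 27, by 1.54 (SE 0.21, limma adjusted p = 3.32e-07). This holds for the brightest probe of each gene. In the fit of all kept probes, the other probe of Rpl29 differed by -3.68 (SE 0.36), beside -0.32 (SE 0.16) for its brightest. Unused probes of Rpl23 (0.45 and 0.83), Rpl27a (0.54), Rpl28 (0.63) and Rps13 (0.73) were called higher where the brightest was not. Those of Rps19 (0.16), Rpl37 (0.07) and Rps9 (0.32), and the dimmest of Rpl21 (0.34), were not called where the brightest was. Rpl39l was at 12.33 against 12.33 and 12.19, a difference of 0.07 (95% interval -0.40 to 0.54). Of the 2 transcripts that rose with age in WT testes, Rps4l was thus called lower in LuRKO testes at day 27 and Rpl39l was not called. Rpl36al differed by -0.01 (95% interval -0.36 to 0.33). The X-linked parents of the other retrogenes were higher in 6 of 6 cases (median 1.24), and of the 4 retrogenes 2 were lower (median -0.65).

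Cell type markers moved in the same comparisons. From WT day 3 to day 27, 6 of 6 spermatid markers rose (median 7.25), their mean level going from 6.70 to 6.86 on the day 3 arrays to 13.50 to 13.58, and 6 of 7 markers of meiotic spermatocytes rose (median 3.54). Sertoli cell markers fell in 4 of 5 cases (median -1.89), from 11.44 to 11.78 down to 9.58 to 9.63, and spermatogonial markers in 3 of 7 (median -0.13). Myoid markers fell in 4 of 4 cases (median -1.87), Leydig cell markers in 3 of 5 (-0.74), macrophage markers in 3 of 4 (-0.51), endothelial markers in 2 of 3 (-1.55) and erythroid markers in 1 of 2 (-1.54). At day 27, LuRKO testes had 6 of 6 spermatid markers lower (median -5.19), at a mean level of 8.50 with 1 of the 6 below background, and 4 of 5 Sertoli and 5 of 7 spermatogonial markers higher (medians 1.18 and 0.91). The part of cell make-up in the changes of ribosomal protein transcripts was not tested.

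Before day 19 few of these transcripts were called different between the genotypes. At day 8 and day 13 no member was called, with 0.0460% and 1.73% of all genes, and 5 members at each age had an unadjusted p under 0.05. At day 3, 2 members were called, both lower, and 11 members had an unadjusted p under 0.05. Of all genes 8.15% were called in either direction, 438 higher and 801 lower. Rpl39l was at 6.92 and 7.12 in LuRKO and 8.89 and 9.38 in WT testes, lower by 2.11 (SE 0.19, limma adjusted p = 9.85e-09). Rps20, of the small subunit, was at 6.35 and 6.10, not above background, against 7.97 and 7.76, at least 2.37-fold lower. Both were also lower on all injected arrays than in untreated LuRKO testes of day 19, and the LuRKO day 3 arrays share low Hspa5 with the injected ones; its part in the result was not tested. With the mean of a gene's probes 6 members were called at day 3.

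At day 19, 8 transcripts were higher and 1 lower in LuRKO testes, with 11.9% and 11.2% of all genes, and the median was 0.13 for members and 0.02 for all genes. Rps15a was at 8.14 and 8.06 against 7.28 and 7.32 in WT testes, higher by 0.80 (SE 0.15, limma adjusted p = 0.000345). Rpl21 and Rps3 were higher by 0.40 each (SE 0.11 and 0.12), and of the X-linked members Rps4x was higher by 0.36 (SE 0.13), while Rpl36a and Rpl39 did not pass the test. Rps4l was lower by 0.46 (SE 0.17, adjusted p = 0.0496), at 10.17 and 10.65 against 11.00 and 10.73. This call rests on single arrays: Rps4l differed by -0.22 without LuRKO day 19 A, -0.32 without WT day 19 A and -0.59 without WT day 19 B, none of them called, and the call was also lost with arrays centred on 1 median, with no filter on dim probes, with the mean of probes and in a fit of the age series alone. Rps3 was not called without LuRKO day 19 B, WT day 19 A or WT day 19 B (0.31, 0.40 and 0.39), nor Rpl21 without LuRKO day 19 B or WT day 19 B (0.33 and 0.32). The 9 calls became 5 without LuRKO day 19 array B, 3 without WT day 19 array A, 2 without WT day 19 array B and 5 in a fit of the age series alone. Rps15a is dim, and its LuRKO day 27 level of 7.27 differed from WT by 0.34 (SE 0.18) and was not called. In the same comparison at day 19, 2 of 5 Sertoli markers were higher (median 0.38; mean level 10.50 to 10.53 in LuRKO and 10.23 to 10.24 in WT), 3 of 7 spermatogonial markers were higher and 1 lower (median 0.40), and 1 of 6 spermatid markers was higher and 2 lower (median -0.22; 6.98 to 7.08 against 7.26 to 7.53). All 4 macrophage markers were lower (-1.43 to -0.78), as were 3 of 5 Leydig cell markers, with 1 higher (median -0.67). The part of these in the result was not tested.

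**Figure D4:**
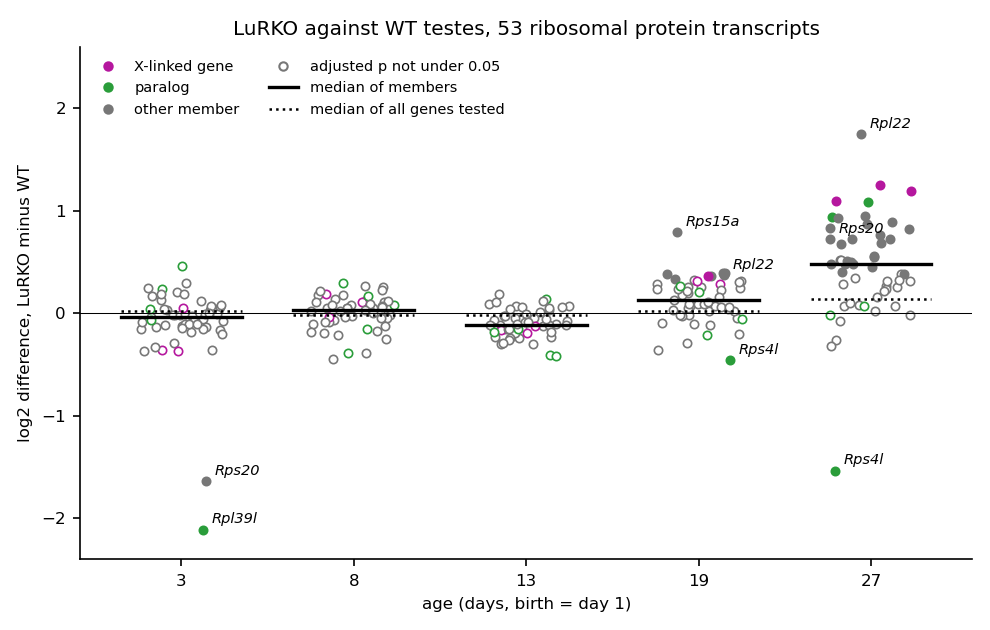
Each point is the log2 difference between LuRKO and WT testes for 1 of the 53 ribosomal protein transcripts at each age in days (2 arrays against 2, and 1 against 2 at day 27); open points did not pass an adjusted p of 0.05, solid lines are the median of the members and dotted lines that of all genes tested. The median of members lies at 0.48 at day 27 and at -0.04, 0.03, -0.11 and 0.13 at days 3, 8, 13 and 19.

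After 2.5 mg testosterone propionate, each time was compared with the untreated LuRKO testes of day 19; these comparisons share their 2 control arrays, and their values are given side by side only. Called members numbered 14 at 2 h, 20 at 4 h, 15 at 8 h, 10 at 12 h, 9 at 24 h (1 array) and 11 at 48 h, with 20.9%, 27.3%, 20.8%, 16.5%, 9.80% and 31.8% of all genes. Vehicle-injected testes differed from the same untreated arrays in 9 members, 6 higher and 3 lower, with 14.0% of all genes (986 higher and 1137 lower). Against vehicle, the calls were 2, 4, 2, 1, 3 and 14 in the order of the times, with 1.76%, 9.81%, 3.23%, 1.91%, 4.81% and 21.0% of all genes. Without the library labelled vehicle A they were 0, 0, 0, 0, 3 and 12.

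Rpl39l was the member that differed most from untreated testes at every time. The untreated arrays read 11.70 and 11.55 and the vehicle arrays 9.26 and 9.14. After 2.5 mg it was at 8.93 and 8.84 at 2 h, 8.66 and 8.58 at 4 h, 8.62 and 9.18 at 8 h, 9.23 and 9.31 at 12 h, 10.22 on the array of 24 h and 9.85 and 9.79 at 48 h. All 19 injected arrays thus lay below both untreated ones, vehicle included. Vehicle differed from untreated testes by -2.43 (SE 0.19, limma adjusted p = 9.53e-10).

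Against vehicle, Rpl39l was lower at 4 h by 0.58 (SE 0.19, limma adjusted p = 0.0492) and higher at 24 h by 1.02 (SE 0.23, adjusted p = 0.011) and at 48 h by 0.62 (SE 0.19, adjusted p = 0.018). The call at 4 h was lost without the library labelled vehicle A (-0.52) and that at 24 h without vehicle B (0.96). The arrays of 24 and 48 h all lay above both vehicle arrays and those of 4 h below both. Its difference at 24 h from untreated testes, -1.41 (SE 0.23), has the opposite sign to that from vehicle. Hspa5 on the same arrays was at 8.84 and 8.83 at 4 h, 9.17 at 24 h, 9.03 and 9.13 at 48 h and 9.43 and 9.31 with vehicle.

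Rps20 was below background on all injected arrays, at 5.96 to 6.44, and at 7.10 and 6.89 in untreated LuRKO testes, so it was at least 1.29-fold lower at each time and with vehicle. Rps6, whose protein is phosphorylated downstream of mTOR, was at 11.91 and 12.58 in untreated testes and at 13.24 and 13.33 with vehicle, which was higher by 1.04 (SE 0.15). After 2.5 mg it was higher than untreated by 0.82 at 2 h, 0.81 at 4 h, 0.65 at 8 h, 0.71 at 12 h and 0.54 at 48 h (SE 0.15 each). Against vehicle the same transcript was lower at 24 h by 0.77 (SE 0.19) and at 48 h by 0.50 (SE 0.15). Without untreated array A the differences were 0.48, 0.47, 0.32, 0.37 and 0.21, and those at 8, 12 and 48 h were not called. The call at 48 h against untreated testes was also lost without array A of that time (0.50). Against vehicle, the call at 24 h was lost without vehicle B (-0.72). The mean of Rps6 at each time lay between those of untreated and vehicle-injected testes, and its direction depends on the control.

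Other members followed the vehicle too. Rps4l was higher than untreated by 0.61 to 0.86 at 2, 4, 8, 12 and 48 h and by 0.81 (SE 0.17) with vehicle. Without untreated array A, Rps4l was not called at 4 h (0.49), 8 h (0.42), 12 h (0.53) or 48 h (0.37). Its call at 48 h was also lost without array A of that time (0.54). Rps15a was lower than untreated at all 6 times, by 1.06 (SE 0.15) at 48 h, and by 0.67 (SE 0.15) with vehicle. Its calls at 8 and 24 h were lost without untreated array A (-0.53 and -0.61), and that at 8 h also without array A of that time (-0.54). Rps13, of the small subunit, was higher than untreated by 0.58 (SE 0.14) at 12 h and 0.52 (SE 0.14) with vehicle, but with the mean of its 2 probes it was at -0.39 at 12 h. Its call at 12 h was also lost without untreated array A (0.47) and without array B of that time (0.53). Vehicle-injected testes thus differed from untreated ones in the same direction, with array A doubted for its Rhox5 level. The part of testosterone in these shifts was not tested.

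Fewer members moved against vehicle before 48 h. Rps26 was lower at 2 h by 0.62 (SE 0.14), at 13.12 and 13.56 with vehicle at 13.94 and 13.98, and Rpl31 was lower by 0.45 (SE 0.12). At 4 h, Rpl36a was higher by 0.63 (SE 0.16), Rpl10a by 0.54 (SE 0.12) and Rps12 by 0.43 (SE 0.10), and at 8 h Rpl10a and Rps12 by 0.45 (SE 0.12) and 0.39 (SE 0.10). At 12 h Rpl7a was lower by 0.56 (SE 0.15). None of these calls was kept without the library labelled vehicle A, where Rps26 differed by -0.65 at 2 h and Rpl7a by -0.51 at 12 h. Rps2, a small-subunit protein at the mRNA entry channel, was higher than untreated by 0.78, 0.81 and 0.94 at 2, 4 and 8 h (SE 0.20 each) and did not pass the test against vehicle (0.51 at 2 h, SE 0.20). Without untreated array B it was not called at 2 h (0.54) or 4 h (0.57), nor without array A of either time (0.67 and 0.62). Without array B of 8 h it was not called at that time (0.68).

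At 48 h, 12 members (22.6%) were lower and 2 (3.77%) higher than vehicle, 14 of 53 in all. Of the 15201 genes tested, 1584 were lower and 1615 higher, 21.0% in either direction. The median was -0.18 for members and -0.04 for all genes. Rpl7a was at 10.72 and 10.82 with vehicle at 11.47 and 11.36, lower by 0.65 (SE 0.15), Rps19 was lower by 0.59 (SE 0.14) and Rpl39 by 0.52 (SE 0.12). Rps4x was lower by 0.45 (SE 0.13), and Rpl36a, at 11.60 and 11.42 against 11.53 and 11.73, was not called. Besides Rpl39l, Rps12 was higher, by 0.29 (SE 0.10). On the same arrays 3 of 6 spermatid markers were higher than vehicle (median 0.44), 2 of 7 of meiotic spermatocytes were higher (0.13) and 2 of 7 of spermatogonia lower (-0.50); their part in the result was not tested.

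**Figure D5:**
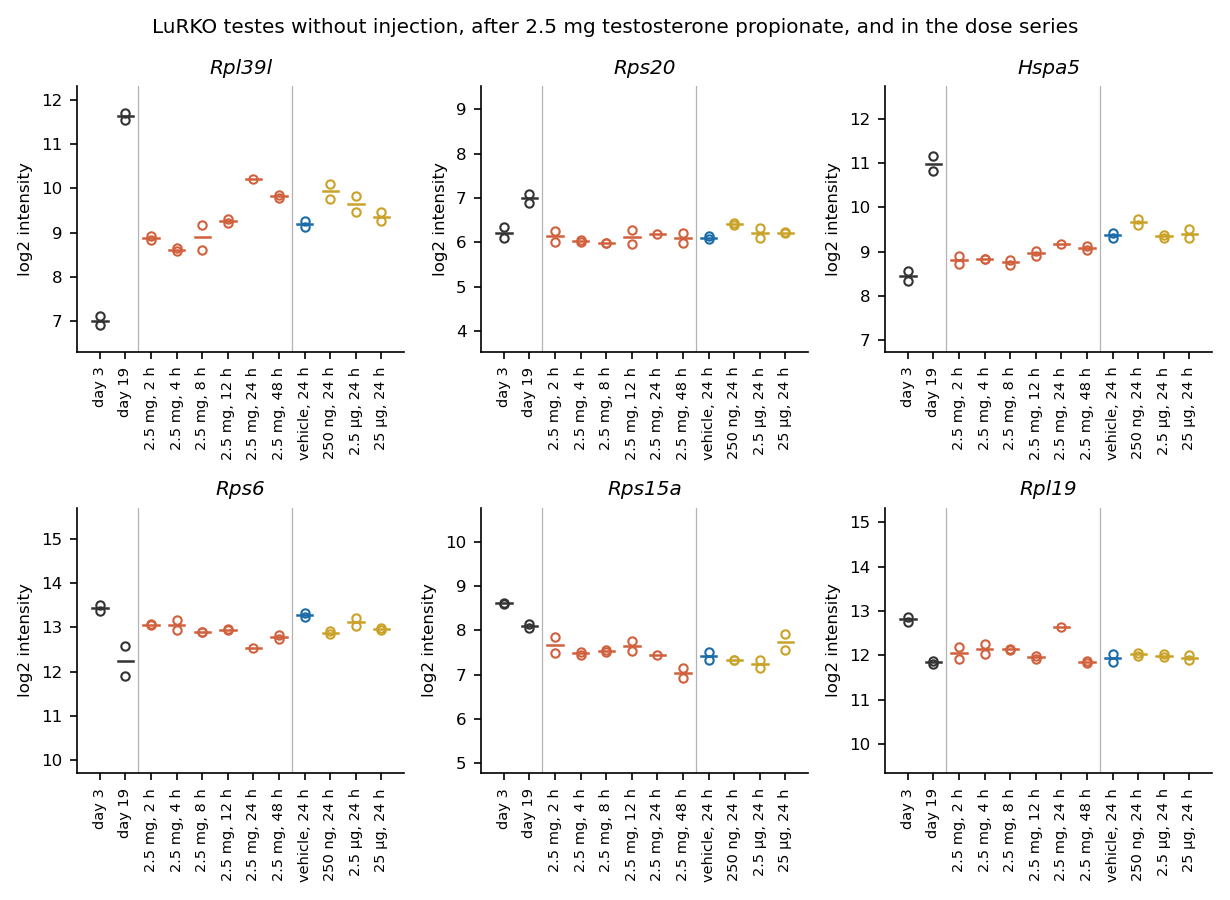
Log2 intensity of 5 ribosomal protein transcripts and of Hspa5 in LuRKO testes; circles are arrays and bars group means, black for untreated days 3 and 19, orange for 2.5 mg testosterone propionate at 2 to 48 h, blue for vehicle and yellow for lower doses at 24 h, and all panels span 6 log2 units. Rpl39l, Rps20 and Hspa5 are lower on all injected arrays, vehicle included, than in untreated testes of day 19.

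In the dose series at 24 h against vehicle no member was called at 250 ng, 2.5 µg or 25 µg, where 0.0592%, 0.0526% and 0.454% of all genes were called; 7, 4 and 12 members had an unadjusted p under 0.05. Rpl39l was at 9.77 and 10.11 with 250 ng, 9.47 and 9.83 with 2.5 µg and 9.46 and 9.26 with 25 µg. It was at 10.22 with 2.5 mg, on the array of the time course, beside vehicle at 9.26 and 9.14. Its differences from vehicle were 0.74 (95% interval 0.36 to 1.13), 0.45 (0.07 to 0.84), 0.16 (-0.23 to 0.55) and 1.02 (0.55 to 1.49), with no steady order by dose. At 2.5 mg Rpl19, of the large subunit, was at 12.65 with vehicle at 11.84 and 12.02, higher by 0.71 (SE 0.14, limma adjusted p = 0.00469). Rpl19 lay at 11.89 to 12.06 at the 3 lower doses and at 11.83 to 12.26 at the other times after 2.5 mg, so the single array of 24 h stood alone. Without vehicle array B, 1 call was made at 2.5 mg in place of 3.

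The other genes of the translation machinery give the surroundings of these changes. Over all genes tested, 44.3% were called lower and 28.7% higher with age (median -0.18). From WT day 3 to day 27, 3 of 4 tested ribosome genes outside the symbol rule fell (median -0.67), among them the stalk protein genes Rplp0 by 1.31 (SE 0.12) and Rplp2 by 0.96 (SE 0.17). Of 14 further mRNAs known to begin with a pyrimidine tract, 8 fell and 2 rose (median -0.46): Eef1b2, an exchange factor of elongation, fell by 1.67 (SE 0.11), while Eef2, the translocase, rose by 0.72 (SE 0.17) and Pabpc1, the poly(A)-binding protein, by 1.21 (SE 0.14). Ribosome biogenesis genes fell in 14 of 18 cases and rose in 1 (median -0.78), among them Ncl (nucleolin), which fell by 2.52 (SE 0.13), and Nop56, of the box C/D complexes, which fell by 2.28 (SE 0.13).

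Mitochondrial ribosomal proteins, which serve the separate ribosomes of mitochondria, fell in 40 of 72 cases and rose in 17 (median -0.43), beside the same shares of all genes. At day 27 the same lists stood in LuRKO testes at 2 of 4 higher (median 0.25) for the other ribosome genes and 5 higher and 2 lower of 14 (0.20) for the mRNAs with a tract. There were 10 higher and 1 lower of 18 (0.49) among biogenesis genes and 35 higher and 7 lower of 72 (0.38) among mitochondrial ribosomal proteins. Over all genes tested, 34.1% were called higher and 20.8% lower at day 27 (median 0.14). The lists differ in probe brightness and size, and no difference between them was tested.

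The genes whose group means ran most like those of Rpl39l were named by Pearson's r, a description without a test. Over all 20 groups these were Cct7 (0.98), a subunit of the cytosolic chaperonin, 1700018B24Rik (0.98), Pdcd5 (0.97), Pmpcb (0.96) and Dhx16 (0.96). Because Rpl39l is low on all injected arrays, the order was taken again over the 9 groups of the age series other than LuRKO day 3. These were Elp5 (0.99), 1700018B24Rik (0.99), Actr8 (0.99), Fam177a (0.99) and Gsto2 (0.99), so only 1700018B24Rik is in both lists. These group means share the arrays and the trend with age.

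Across all 20 group means, Rpl39l ranged most of the 53 members, from 7.02 in LuRKO day 3 to 12.33 in LuRKO day 27, a span of 5.31. Rpl22 spanned 3.37 and Rps4x 3.21, both with WT day 27 lowest and LuRKO day 3 highest. Rpl41, whose protein is the shortest of the ribosome, and Rps29 spanned 0.22 and 0.33, both bright. The median of the 53 members in a group was lowest in WT day 27 at 13.19 and highest in LuRKO day 3 at 14.30, while that of all genes stayed between 8.32 and 8.40.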

How the data were processed

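Testis RNA was read on 38 Illumina bead arrays. The deposited table holds probe intensities, normalized by quantiles by the authors, as their near-equal distributions show (array medians 108.10 to 108.25); BeadStudio is named in the submitters' processing notes, without a version. The signals before normalization were left aside because 76 columns of that table carry names found in no label; the planned detection p-values come from it, so background was judged on the normalized values instead. Background was corrected with normexp (offset 50), followed by log2, in limma 3.58.1 under R 4.3.3. The threshold of 102 (6.62 after correction) came from the mode, 75.95, and the spread below it at 0.01, one-sided. The platform's 45281 probes divide into 34885 with a single symbol, 18 with several and 10378 with none listed; symbols were updated by Entrez ID to RefSeq GRCm38.p6. The brightest probe above background on at least 2 arrays stood for a gene (15201 genes). A model with 1 mean per group over all arrays was fitted with lmFit, moderated with eBayes (residual degrees of freedom 18, prior 10.4) and tested on simulated data. Where a gene was above background on no array of a group, its fold is a lower bound, in which every signal of that group under the threshold was raised to the threshold. Members, gene lists and tests were chosen with earlier results of these data known. Genes named were the X-linked members and paralogs, up to 3 called members each way per comparison with groups that do not overlap, the brightest and dimmest, those whose probes disagree, the 5 genes most like Rpl39l and up to 4 genes per list; Rpl22l1, Hspa5, Rhox5 and Ldhc, and further members given as examples, were added after values were seen. Alternatives are given at the end.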

Additional observations from a re-analysis of the deposited data

Results flagged for a closer look

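For 16 of the 53 transcripts the change from day 19 to day 27 differed between LuRKO and WT testes by the interaction test over all genes, with 1 LuRKO array at day 27. It was positive for 14 (26.4%) and negative for 2, among all genes 21.6% and 13.2%. The positive share of the members was thus close to the background. The difference, LuRKO minus WT, was 1.38 for Rpl22, 0.94 for Rpl36a, 0.91 for Rpl39, 0.88 for Rps21 and 0.82 each for Rps20 and Rpl3l. It was 0.73 each for Rps4x, Rps27l and Rpl4, 0.69 for Rps16, 0.66 for Rps24, 0.64 for Rpl12, 0.61 for Rpl19 and 0.53 for Rpl14. Rpl14 was not above background in LuRKO day 19 or WT day 27 and was so on only 12 arrays in all, so its value is no measured size. The other 13 had WT differences between day 27 and day 19 of -1.02 (Rpl22) to -0.42 (Rps20) and LuRKO differences of 0.02 (Rps4x) to 0.40 (Rps20), none of the latter called. Rpl29 at -0.70 and Rps4l at -1.08 ran the other way. Rpl29 was not called without LuRKO day 19 A (-0.45) or without WT day 27 B (-0.57), and its probes disagree in direction. Rps20 is dim, above background on 17 arrays. Spermatid markers, at 7.26 to 7.53 in WT day 19, stood at 13.50 to 13.58 in WT day 27 and at 8.50 in LuRKO day 27, and their part in these differences was not tested.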

How the results depend on the processing

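The 44 decreases and 2 increases from WT day 3 to day 27 gave 43 to 46 calls when each array was left out, and the 30 calls between genotypes at day 27 kept within 1.5 times that number under every alternative run. No member was called at days 8 and 13 or at the 3 lower doses under any of them. The 31 calls from WT day 19 to day 27 were 19 to 24 with an array left out. In LuRKO testes over that step 2 calls became 4 with the mean of a gene's probes and 4 without the 3 doubted arrays, with 2 to 4 when each array was left out. The 2 calls at day 3 became 6 with the mean of probes, and the 9 at day 19 became 5 with the arrays of the age series alone and 2 to 7 with an array left out. Against untreated testes, leaving out an array gave 7 to 10 calls at 2 h, 8 to 19 at 4 h, 6 to 15 at 8 h, 5 to 12 at 12 h, 5 to 9 at 24 h and 6 to 15 at 48 h. Leaving out LuRKO day 19 A moved all 6 by over 1.5 times, as did array A at 2 h, B at 4 h and either array at 8 and 12 h. At 24 h the 9 calls were 14 with the mean of probes and 5 with only the arrays of the time course and its untreated control. With vehicle as control there were 2 calls at 2 h, 4 at 4 h, 2 at 8 h, 1 at 12 h and 3 at 24 h, and with vehicle A also left out, an alternative chosen after seeing the data, 0, 0, 0, 0 and 3. Against vehicle at 24 h leaving out an array gave 1 to 3.

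The change of control turned the sign of single genes; values follow with both vehicle arrays and then with vehicle B alone. Rps6 was at -0.23 and -0.27 at 2 h, -0.23 and -0.28 at 4 h, -0.39 and -0.44 at 8 h, -0.34 and -0.38 at 12 h and -0.50 and -0.54 at 48 h. Rps4l was at -0.090 at 2 h with vehicle B alone, at -0.075 and -0.22 at 4 h, -0.15 and -0.29 at 8 h, -0.040 and -0.18 at 12 h and -0.19 and -0.34 at 48 h. Rps15a was at 0.058 and 0.15 at 4 h, 0.11 and 0.20 at 8 h and 0.025 and 0.11 at 24 h. Rps20, below background in both groups, was at 0.030 and 0.0021 at 2 h, 0.013 at 12 h with both and 0.093 and 0.065 at 24 h. Rpl39l was at 0.073 and 0.13 at 12 h, 1.02 and 1.08 at 24 h and 0.62 and 0.68 at 48 h. Rps13 was at -0.051 and -0.062 at 48 h, and Rps15 at -0.042 at 24 h with vehicle B alone. With the mean of probes Rpl23 was at -0.20 from WT day 19 to day 27 and Rps13 at -0.39 at 12 h and -1.01 at 48 h. Why these values turned was not tested. Over single genes, 657 values kept direction and call, 79 lost the call and 42 turned.

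The letters A and B do not pair arrays: over 153 pairs of groups the A minus B differences correlated at -0.26 to 0.25 (median 0.008), with 23 over 0.1. With the letter as a replicate block the calls were 46 from WT day 3 to day 27, 31 from day 19 to day 27, 31 between genotypes at day 27 and 4 at 24 h against vehicle. Signals near background limit Rpl14, Rps20 and Rps15a.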
